A study of Homo sapiens with 6 samples.

Results

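The genes described are the amino acid carriers of the solute carrier families SLC1, SLC3, SLC7, SLC36, SLC38 and SLC43. They were taken by symbol, as every row of the expression table whose symbol is one of these families followed by A and a number. This gave 40 genes of the 58024 in the table, of which 37 were above 0 in at least 1 library and 29 had a mean of at least 0.1 FPKM and were tested. FPKM is a level per length of transcript and per depth of the library, so it can be set side by side between genes.

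RNA-Seq was performed on C4-2B parental cells (3 libraries) and C4-2B enzalutamide resistant cells (3 libraries). C4-2B is a prostate cancer cell line that descends from LNCaP through C4-2, raised from xenografts in castrated mice, and enzalutamide is an antagonist of the androgen receptor. The resistant cells were derived by passage in rising enzalutamide, from 1 to 20 µM, for a minimum of 6 months, with 5 µM as the maintenance dose, whereas the parental cells were passaged in parallel with DMSO. The series text gives 1% for this vehicle, whereas the methods of the study give a maximum that is below this. The labels name 10 µM enzalutamide at RNA extraction and leave unclear whether this applies to both groups. Resistance and the presence of the drug therefore cannot be told apart, and the resistant cells are 1 selected line. The libraries are numbered 0, 1 and 2 in each group. Nothing states that these are separate cultures, so p values measure the spread between these libraries, which may be technical.

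Amino acids cross membranes through carriers that differ in substrate and in driving force. The light subunits of SLC7 reach the plasma membrane bound to a heavy subunit of SLC3 and exchange amino acids, whereas the cationic carriers of SLC7 and the SLC43 facilitators act without a heavy subunit. SLC1 and SLC38 carriers use the sodium gradient to concentrate acidic and neutral amino acids, and SLC36A1 uses protons. Leucine brought in by large neutral amino acid carriers and arginine in the lysosome are known signals for the growth kinase mTORC1, and androgen is known to raise SLC43A1 in prostate cells.

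The promoters of the 4 large neutral amino acid carriers are shown first, because these genes were all lower in the resistant cells. The windows are from RefSeq (GRCh38.p14), which gave 53 windows for 31 of the 40 genes, and span 300 bases, from 250 before to 50 after an annotated start. All 300 bases were searched for motifs. Printed are the bases before the start, without those within an annotated exon. All 4 are on the minus strand and are written 5′ to 3′. Capitals mark the E-box CACGTG, a motif bound by MYC, MITF and related factors.

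SLC43A1, chr11:57515781-57515952: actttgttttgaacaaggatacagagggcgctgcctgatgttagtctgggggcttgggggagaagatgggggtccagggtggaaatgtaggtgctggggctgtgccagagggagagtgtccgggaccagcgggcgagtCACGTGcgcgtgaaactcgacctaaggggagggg
SLC7A5, chr16:87869508-87869757: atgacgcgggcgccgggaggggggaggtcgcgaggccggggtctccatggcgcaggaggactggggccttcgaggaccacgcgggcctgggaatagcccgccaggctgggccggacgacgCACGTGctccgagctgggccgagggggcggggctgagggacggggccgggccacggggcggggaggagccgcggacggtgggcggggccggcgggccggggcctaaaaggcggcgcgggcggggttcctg
SLC7A8, chr14:23154451-23154643: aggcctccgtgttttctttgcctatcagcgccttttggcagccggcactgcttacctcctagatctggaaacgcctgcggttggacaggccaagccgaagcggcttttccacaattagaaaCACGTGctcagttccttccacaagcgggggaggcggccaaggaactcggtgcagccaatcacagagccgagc
SLC43A2, chr17:1628887-1629084: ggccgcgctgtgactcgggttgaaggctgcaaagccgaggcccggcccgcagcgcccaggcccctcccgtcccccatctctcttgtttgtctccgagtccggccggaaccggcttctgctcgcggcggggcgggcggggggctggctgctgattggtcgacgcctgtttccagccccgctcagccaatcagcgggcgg

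The E-box began at position -112 from the start in SLC43A1, at -130 in SLC7A5 and at -129 in SLC7A8, and SLC43A2 had no match. SLC7A8 has 4 windows, SLC43A2 has 3 and SLC43A1 has 2. The E-box was in a single window of SLC7A8, which lies inside the annotated gene, and in a single window of SLC43A1. For both genes the window printed is the one that holds it. Their other windows, among them that of SLC7A8 at the start of the annotated gene, had no E-box. Of the member windows, 17.0% held CACGTG on either strand, beside 7.20% of all 34796 windows. The E-box was also in windows of SLC36A1 and SLC38A7, which were downregulated, and of SLC1A5, SLC38A5 and SLC7A7, which did not pass the test. A window of SLC1A7, which was at 0 in all libraries, held it too. In SLC38A7 it began after the start, at position 14. The core of the amino acid response element, TGATGNAA, was searched on both strands and was in 11.3% of member windows and 3.63% of all windows. It was in windows of SLC1A3, SLC1A4, SLC1A5 and SLC38A1, beginning before the start, and of SLC3A2 and SLC7A1, beginning after the start at positions 37 and 7. The core of the androgen response element, AGAACA, was in 11.3% of member windows and 14.8% of all windows. No motif contains another, and a match is a match of letters in the window and no more. No window was used for SLC1A2, SLC3A1, SLC38A3, SLC43A3, SLC7A2, SLC7A3, SLC7A4, SLC7A11 or SLC7A13.

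Libraries held between 792975 and 870110 FPKM in sum. The depth was estimated on genes with a single transcript, by taking their most frequent length-scaled value as 1 read and assuming fragments of 200 bases. It was between 13600000 and 20700000 reads, at which 1 read on a transcript of 2000 bases is worth 0.0268 to 0.0408 FPKM. Correlations of log2 values were 0.911 to 0.929 between libraries of the same cells and 0.782 to 0.802 between the cells. All 10 luminal prostate markers were at 1 FPKM or more in every library, with a sum of 4227 to 5004 FPKM in the parental libraries and 1234 to 1320 FPKM in the resistant libraries. Of the neuroendocrine markers, ENO2 had mean values of 7.15 FPKM in parental and 139 FPKM in resistant cells, and SYP of 1.70 and 49.6 FPKM. Basal and leukocyte markers summed to at most 0.927 and 1.18 FPKM. The 5 fibroblast markers summed to 6.65 to 8.92 FPKM in parental and 8.26 to 14.7 FPKM in resistant libraries, and 2 of them were called higher. DCN was listed at 0 in all parental libraries and was 3.63, 3.78 and 4.35 FPKM in the resistant ones, and LUM rose from a mean of 0.0604 to 0.969 FPKM. COL1A1 went the other way, with a mean of 6.71 FPKM in parental and 4.39 FPKM in resistant cells. COL3A1 had means of 0.863 and 1.10 FPKM. For COL1A1 and COL3A1 the groups overlapped and neither was called, and COL1A2 was not tested. The part of these marker shifts in the carrier results was not tested, and in bulk RNA fewer cells of a type and less RNA per cell cannot be told apart.

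The carriers were mostly lower in the resistant cells. Of the 29 tested genes, 15 were downregulated and 6 were upregulated, and 8 did not pass the limma test at an adjusted p of 0.05 (Benjamini-Hochberg over all genes tested). The 21 called genes are 72.4% of the tested carriers, whereas 44.4% of all 24468 tested genes and 55.7% of tested protein-coding genes were called. By direction, 51.7% of the carriers were lower, beside 22.3% of all genes and 26.7% of protein-coding genes. The share of carriers that were higher, 20.7%, was near the 22.1% of all genes. The median log2 fold change was -0.58 over the carriers and -0.05 over all genes.

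Of the carriers, 8 were downregulated at least 2-fold (27.6%, beside 13.6% of all genes) and 4 were upregulated at least 2-fold (13.8%, beside 15.0%). All values of one group lay apart from those of the other for 22 of 29 carriers (75.9%, beside 54.8% of all genes). The resistant libraries were the lower ones for 15 carriers (51.7%, beside 28.1% of all genes) and the higher ones for 7 (24.1%, beside 26.6%). For the 2-fold and non-overlap shares, no value over protein-coding genes alone is given. Protein-coding genes were called more often than all genes (55.7% against 44.4%), so shares beside all genes can overstate an excess among the carriers. The summed FPKM of all 40 genes was 1210, 1227 and 1271 across parental replicates against 801, 760 and 786 across resistant replicates. Every resistant library was thus below every parental library (exact permutation test, two-sided p = 0.1). This is the smallest p that 3 against 3 libraries allow, and it holds for each p of 0.1 given for a sum, share or ratio. Over the 9 sums and ratios computed, the Benjamini-Hochberg adjusted value was 0.113 where the exact p was 0.1.

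**Figure D1:**
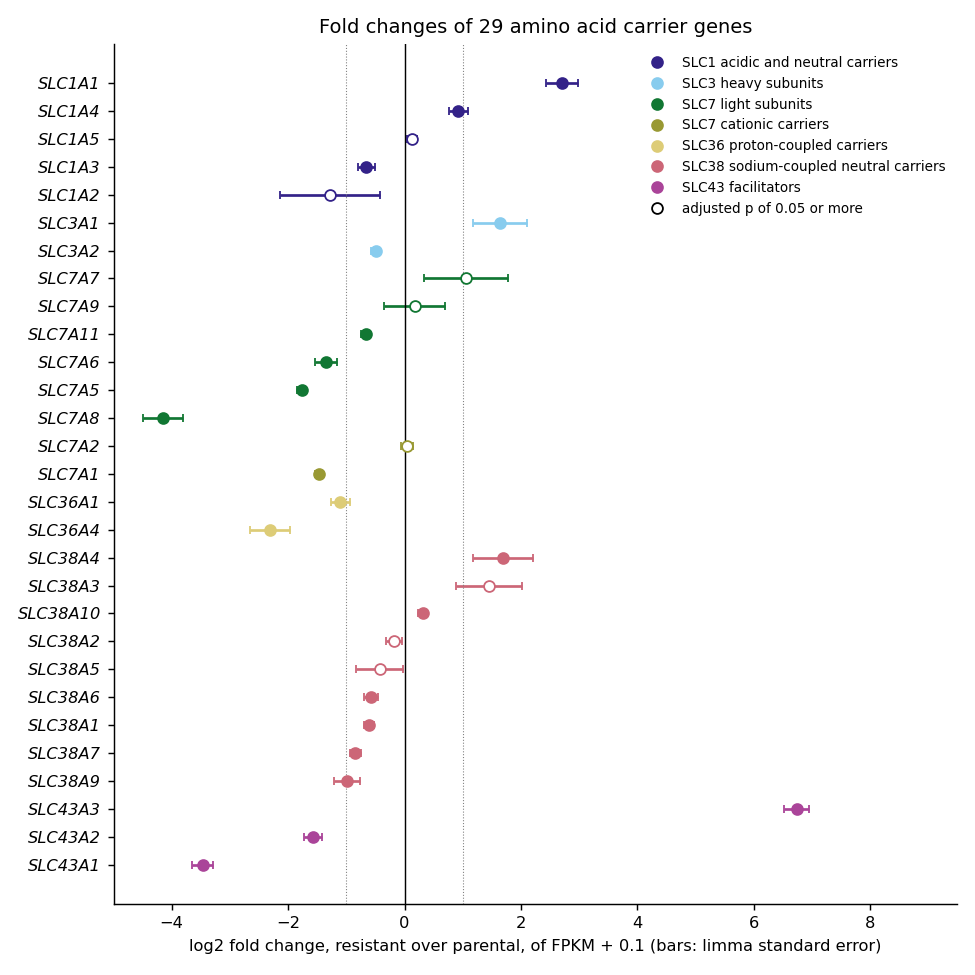
Log2 fold change, resistant over parental, of log2(FPKM + 0.1) for the 29 tested carriers, by family, with bars for the limma standard error. Filled points passed an adjusted p of 0.05, dotted lines mark 2-fold, and the points run from -4.16 for SLC7A8 to 6.73 for SLC43A3.

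The 4 expressed light subunits of SLC7 that pair with SLC3A2 fell in the resistant cells, and the heavy subunit fell less, a difference read from the ratios given with SLC3A2. Gene positions are in GRCh38 (GENCODE v44). Of 8 SLC7 light subunits, 6 were tested, 4 were downregulated (SLC7A5, SLC7A6, SLC7A8 and SLC7A11) and none was upregulated in the limma fit. SLC7A8 (ENSG00000092068.19, chromosome 14, 23125295 to 23183674), an exchanger of large and small neutral amino acids, was 53.2, 44.1 and 52.1 FPKM across parental replicates against 2.66, 4.48 and 1.62 FPKM across resistant replicates. The groups lay far apart, and the mean was 17.1-fold lower, 49.8 ± 4.97 against 2.92 ± 1.45 FPKM (SD, n = 3). Its log2 fold change was -4.16 (SE 0.34, limma adjusted p = 2.07e-04), the largest fall among the tested carriers.

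SLC7A5 (chromosome 16, 87830023 to 87869507), the leucine and large neutral amino acid exchanger often raised in tumors, was 93.1, 84.5 and 84.4 FPKM across parental replicates against 27.3, 24.5 and 24.9 FPKM across resistant replicates. Each group was tight, with no resistant library near a parental one. The log2 fold change was -1.77 (SE 0.08, limma adjusted p = 2.49e-05). Per library, SLC7A5 was at 1.75, 1.92 and 1.62 times the FPKM of SLC7A8 in the parental cells and at 10.2, 5.47 and 15.4 times in the resistant cells (exact permutation test, two-sided p = 0.1). The ratio varied more in the resistant libraries, in which SLC7A8 was at a low level.

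SLC7A6 (chromosome 16, 68264516 to 68301823), which exchanges cationic for neutral amino acids, was 27.9, 21.0 and 31.2 FPKM across parental replicates against 9.37, 12.5 and 9.34 FPKM across resistant replicates. Parental replicate 1 was the lowest of its group and was still above all resistant libraries. The log2 fold change was -1.34 (SE 0.19, limma adjusted p = 0.00185). SLC7A6 overlaps SLC7A6OS on the opposite strand, which was 11.2 and 8.43 FPKM in mean, and whether the counting used strand is not given in the sources used here.

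SLC7A11 (chromosome 4, 138164097 to 138242349) takes up cystine in exchange for glutamate and so feeds glutathione synthesis. It was 38.04, 38.5 and 37.9 FPKM across parental replicates against 22.7, 24.2 and 24.9 FPKM across resistant replicates. The fall was the mildest of the 4 light subunits, with groups that did not overlap and a log2 fold change of -0.67 (SE 0.08, limma adjusted p = 6.85e-04). SLC7A7 and SLC7A9 were low, at no more than 0.494 FPKM in any library, and did not pass the test, and SLC7A10 and SLC7A13 were not tested.

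SLC3A2 (chromosome 11, 62856004 to 62888880), the heavy subunit that carries these light subunits to the surface, was 203, 193 and 222 FPKM across parental replicates against 140, 143 and 155 FPKM across resistant replicates. The lowest parental library was above the highest resistant one, and the log2 fold change was -0.50 (SE 0.08, limma adjusted p = 0.00295). The 6 light subunits that pair with it (SLC7A5, SLC7A6, SLC7A7, SLC7A8, SLC7A10 and SLC7A11) summed to 212, 188 and 206 FPKM across parental replicates against 62.2, 65.9 and 61.2 FPKM across resistant replicates. Light and heavy subunits were thus at close to equal FPKM in the parental cells, whereas the FPKM of the heavy subunit was well above that sum in the resistant cells. These are RNA levels, and the subunit proteins were not measured in these data. Per FPKM of SLC3A2, the light subunits were at 1.04, 0.978 and 0.926 across parental replicates against 0.444, 0.461 and 0.395 across resistant replicates (exact permutation test, two-sided p = 0.1). SLC7A11 per FPKM of SLC3A2 was 0.187, 0.200 and 0.171 across parental replicates against 0.162, 0.169 and 0.161 across resistant replicates, a small step from one group to the other. The sums and the ratios to SLC3A2 were chosen after the values had been seen.

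SLC3A1, the heavy subunit of the cystine carrier of kidney and gut, was 0.0800, 0 and 0 FPKM across parental replicates against 0.287, 0.322 and 0.238 FPKM across resistant replicates. All 3 resistant libraries were above the parental ones, but these values stand for a few reads. Its log2 fold change was 1.65 (SE 0.46, limma adjusted p = 0.0280), and the adjusted p was 0.0554 after quantile normalization. PREPL, on the opposite strand of the same locus, was at a mean of 23.7 FPKM in the parental and 22.7 FPKM in the resistant libraries, far above SLC3A1.

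**Figure D2:**
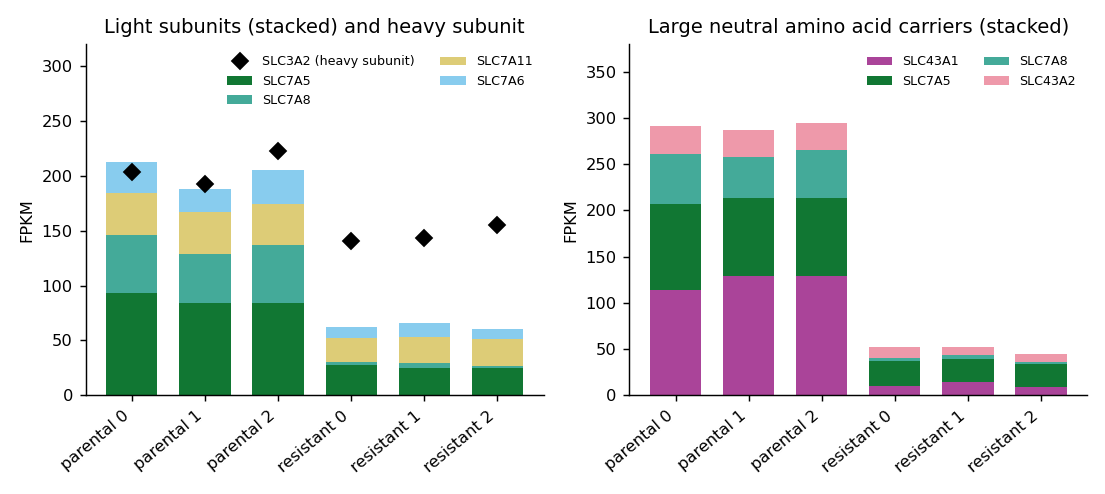
Left, FPKM of 4 SLC7 light subunits stacked in each library with SLC3A2 as diamonds; right, FPKM of 4 large neutral amino acid carriers stacked in each library. SLC7A7 and SLC7A10, the other light subunits that pair with SLC3A2, are not drawn because they were under 0.5 FPKM in every library. The diamonds are close to the bar tops in the parental libraries and far above them in the resistant libraries.

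The SLC43 family changed in both directions. SLC43A1 (ENSG00000149150.8, chromosome 11, 57484534 to 57515780) and SLC43A2 (chromosome 17, 1569268 to 1628886) are facilitators of leucine and other large neutral amino acids, and SLC43A1 was first described as a gene overexpressed in prostate cancer. SLC43A1 was 114, 129 and 129 FPKM across parental replicates against 10.0, 14.6 and 9.35 FPKM across resistant replicates. Its mean was 10.96-fold lower, with all resistant libraries far under the parental ones and a log2 fold change of -3.47 (SE 0.18, limma adjusted p = 3.47e-05). Among the 40 carriers SLC43A1 ranked 4 by mean FPKM in the parental cells and 14 in the resistant cells, and SLC7A8 moved from rank 8 to rank 21.

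SLC43A2 was 31.2, 28.7 and 28.4 FPKM across parental replicates against 12.1, 9.04 and 8.63 FPKM across resistant replicates. The groups did not overlap, and the log2 fold change was -1.57 (SE 0.15, limma adjusted p = 3.41e-04). The 4 large neutral amino acid carriers SLC7A5, SLC7A8, SLC43A1 and SLC43A2 together, a grouping made after the values had been seen, summed to 292, 287 and 294 FPKM across parental replicates against 52.0, 52.7 and 44.4 FPKM across resistant replicates (exact permutation test, two-sided p = 0.1). SLC43A1 was the largest of these in the parental cells, and SLC7A5 the largest in the resistant cells.

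SLC43A3 (chromosome 11, 57406954 to 57427580) belongs to the family by sequence but is known as a carrier of purine nucleobases such as adenine and not of amino acids. It was 0.177, 0.322 and 0.222 FPKM across parental replicates against 36.9, 33.3 and 36.6 FPKM across resistant replicates. The parental values were near the floor of the table, whereas the resistant values were high and close to each other, and the gene moved from rank 25 to rank 7 among the carriers by mean FPKM. The mean rose 148-fold, from 0.240 ± 0.0741 to 35.6 ± 2.02 FPKM (SD, n = 3), and the log2 fold change was 6.73 (SE 0.21, limma adjusted p = 7.28e-06), which is 107-fold on the scale with the pseudocount. The size of the rise rests on parental values that stand for few reads. The log2 fold change stayed between 6.60 and 6.90 when each library was left out in turn.

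SLC43A3 and SLC43A1 are neighbors on the minus strand of chromosome 11, separated by 57.0 kb, and moved in opposite directions. FPKM of SLC43A3 per FPKM of SLC43A1 was 0.00155, 0.00249 and 0.00172 across parental replicates against 3.69, 2.27 and 3.92 across resistant replicates. SLC43A1 was thus the higher of the pair in every parental library and SLC43A3 in every resistant library (exact permutation test, two-sided p = 0.1). Within 100 kb of the pair the table holds 19 genes, the pair included, of which 11 were tested. Of these, 5 with SLC43A1 among them were downregulated and 1, SLC43A3, was upregulated, where 22.3% and 22.1% of all tested genes were. RTN4RL2, which lies between the 2 carriers, was 6.73, 7.70 and 5.53 FPKM across parental replicates against 2.66, 2.54 and 2.93 FPKM across resistant replicates (log2 fold change -1.25, limma adjusted p = 0.00191). It followed the direction of SLC43A1. RP11-872D17.8 overlaps SLC43A3 on the same strand and was at most 0.445 FPKM in any library, far below SLC43A3 in the resistant libraries.

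**Figure D3:**
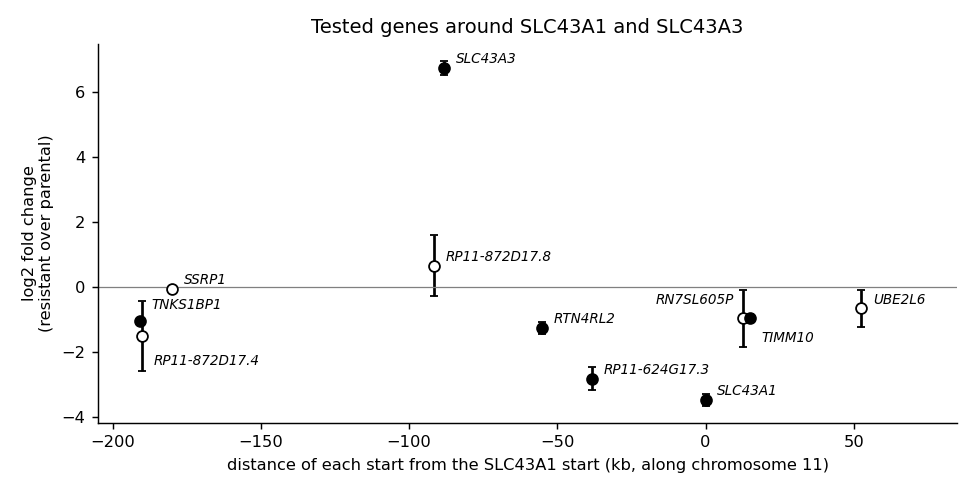
Log2 fold change (resistant over parental, bars: limma standard error) of the 11 tested genes around SLC43A1 and SLC43A3 on chromosome 11, against the distance of each start from the SLC43A1 start in kb. Filled points passed an adjusted p of 0.05, and SLC43A3 at 6.73 is the sole filled point above 0.

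Of the 5 cationic amino acid carriers of SLC7, SLC7A1 was downregulated, SLC7A2 did not pass the test and the rest were not tested. SLC7A1 (chromosome 13, 29509414 to 29595688), the main arginine and lysine importer of most cells, was 134, 127 and 135 FPKM across parental replicates against 44.9, 49.5 and 47.9 FPKM across resistant replicates. Replicates were tight in both groups and the log2 fold change was -1.48 (SE 0.07, limma adjusted p = 2.61e-05). SLC7A2, a second arginine carrier, was 12.6, 13.8 and 11.7 FPKM across parental replicates against 13.0, 13.2 and 13.1 FPKM across resistant replicates. The groups overlapped, with a log2 fold change of 0.05 (SE 0.10, limma adjusted p = 0.749). SLC7A3 and SLC7A4 were listed at 0 in all libraries, as was SLC1A7 of the SLC1 family, and SLC7A14 was at most 0.0659 FPKM.

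Both tested SLC36 carriers were downregulated. SLC36A1, which moves small neutral amino acids with protons, was 18.9, 16.4 and 17.2 FPKM across parental replicates against 6.78, 7.76 and 10.0 FPKM across resistant replicates. The groups did not overlap, and the log2 fold change was -1.10 (SE 0.17, limma adjusted p = 0.00232). SLC36A4, which has a high affinity for proline and tryptophan, was 3.79, 6.89 and 3.77 FPKM across parental replicates against 0.610, 1.10 and 0.908 FPKM across resistant replicates. Parental replicate 1 was the highest, and all resistant libraries were below the lowest parental one (log2 fold change -2.31, SE 0.34, limma adjusted p = 0.00218). SLC36A2 and SLC36A3 were at 0 in all but 1 library each.

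The SLC38 sodium-coupled carriers of glutamine, alanine and other neutral amino acids kept the highest level of all families. Of the 9 tested, 4 were downregulated, 2 were upregulated and 3 did not pass the limma test. SLC38A2, the carrier with the highest mean FPKM in both groups, was 180, 212 and 234 FPKM across parental replicates against 209, 156 and 187 FPKM across resistant replicates. The groups overlapped, with a log2 fold change of -0.18 (SE 0.14, limma adjusted p = 0.337). SLC38A1 was 83.4, 92.4 and 79.8 FPKM across parental replicates against 58.5, 51.6 and 56.8 FPKM across resistant replicates. Here the groups were apart, with a log2 fold change of -0.61 (SE 0.09, limma adjusted p = 0.00186).

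The lysosomal members SLC38A9, which senses arginine for mTORC1, and SLC38A7, which exports glutamine, were downregulated. SLC38A9 was 36.3, 50.9 and 40.02 FPKM across parental replicates against 17.5, 28.4 and 18.8 FPKM across resistant replicates. Replicate 1 was the highest of each group, the groups did not overlap, and the log2 fold change was -0.99 (SE 0.22, limma adjusted p = 0.0110). Without resistant replicate 0 the adjusted p was 0.0562, and without resistant replicate 2 it was 0.0576. SLC38A7 fell from a mean of 24.3 to 13.4 FPKM and SLC38A6 from 11.3 to 7.54 FPKM, each with groups that did not overlap.

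SLC38A10 rose from a mean of 35.7 to 44.4 FPKM (log2 fold change 0.31, limma adjusted p = 0.0178), and its adjusted p was 0.0794 when the variance was not fitted against the mean. SLC38A4, known from liver and placenta, was 0.972, 0.693 and 0.197 FPKM across parental replicates against 1.67, 2.34 and 1.86 FPKM across resistant replicates. All resistant libraries were above the parental ones, and the log2 fold change was 1.69 (SE 0.52, limma adjusted p = 0.0380). Without any single resistant library or without parental replicate 1 its adjusted p was between 0.0766 and 0.130, so that the call rests on these libraries. A lncRNA, RP11-96H19.1, runs opposite to SLC38A4 and was at a mean of 6.28 FPKM in the parental and 8.77 FPKM in the resistant libraries. SLC38A3 and SLC38A5, sodium-coupled glutamine carriers, were at or below 1.03 FPKM and did not pass the test, and SLC38A8 and SLC38A11 were not tested.

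The SLC1 carriers of acidic and neutral amino acids were called in both directions. Of the 5 tested, 2 were upregulated, 1 was downregulated and 2 did not pass the limma test. SLC1A1 (chromosome 9, 4490468 to 4587469), a sodium-coupled carrier of glutamate, aspartate and cysteine, was 1.32, 0.734 and 1.18 FPKM across parental replicates against 6.33, 7.11 and 9.10 FPKM across resistant replicates. The lowest resistant library was far above the highest parental one, and the mean rose 6.97-fold with a log2 fold change of 2.71 (SE 0.27, limma adjusted p = 4.65e-04). SLC1A4, an exchanger of alanine, serine and cysteine, was 8.46, 8.01 and 7.38 FPKM across parental replicates against 14.7, 18.6 and 12.7 FPKM across resistant replicates (log2 fold change 0.92, limma adjusted p = 0.00451). The groups did not overlap.

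SLC1A5, the glutamine exchanger ASCT2, was 87.8, 78.9 and 77.9 FPKM across parental replicates against 93.7, 89.9 and 83.6 FPKM across resistant replicates. The groups overlapped and the log2 fold change was 0.13 (SE 0.08, limma adjusted p = 0.244). SLC1A3, a glutamate carrier known from astrocytes, fell from a mean of 6.08 to 3.82 FPKM (log2 fold change -0.66, limma adjusted p = 0.0126). SLC1A2, the other astrocyte glutamate carrier, was 1.25, 1.54 and 0.208 FPKM across parental replicates against 0.662, 0.0562 and 0.296 FPKM across resistant replicates. The groups overlapped, and the log2 fold change of -1.29 (SE 0.86, limma adjusted p = 0.273) did not pass the test. SLC1A6 was at most 0.226 FPKM and was not tested. The sum of the glutamine carriers SLC1A5, SLC38A1 and SLC38A2 was 351, 383 and 392 FPKM across parental replicates against 361, 297 and 327 FPKM across resistant replicates, which overlapped (exact permutation test, two-sided p = 0.2).

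**Figure D4:**
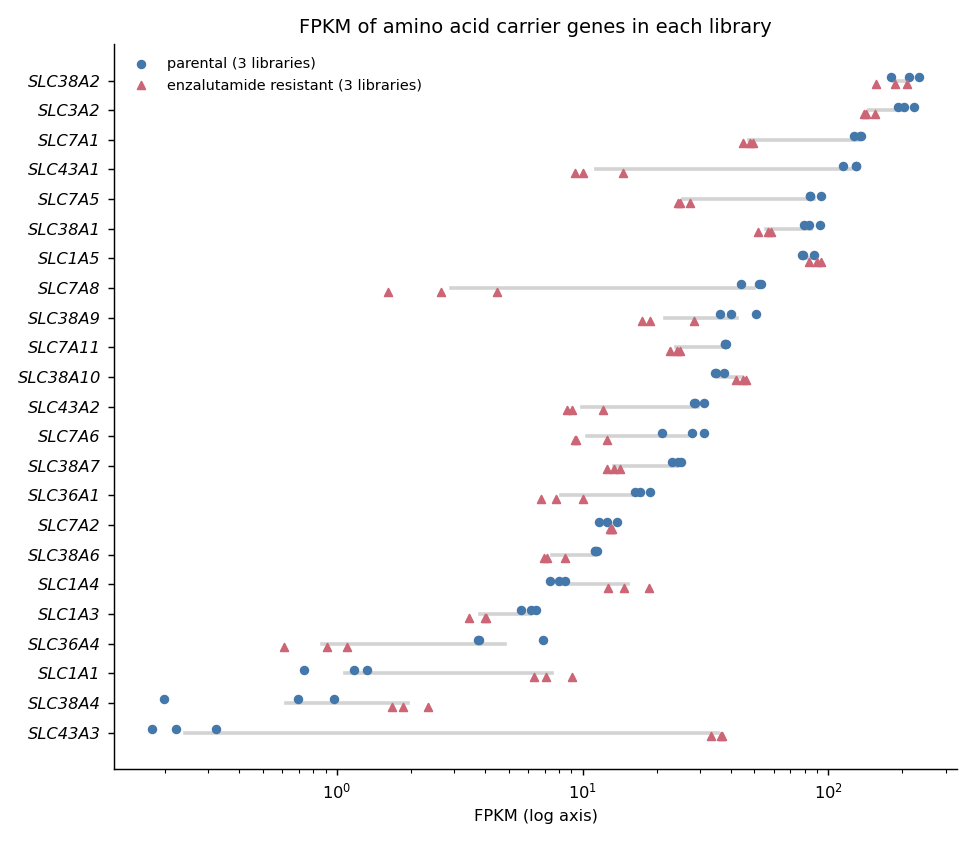
FPKM (log axis) of the carriers whose mean over the 6 libraries reached 1 FPKM, in the 3 parental (circles) and 3 resistant (triangles) libraries, ordered by parental level. SLC43A1 and SLC7A8 are displaced far to the left in the resistant libraries, SLC43A3 far to the right, and the symbols of SLC38A2, SLC1A5 and SLC7A2 overlap.

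The levels were spread widely in both groups. In the parental cells 22 of the 40 genes had a mean of at least 1 FPKM, 7 at least 50 FPKM and 4 at least 100 FPKM (SLC38A2, SLC3A2, SLC7A1 and SLC43A1). In the resistant cells the counts were 22, 4 and 2, and the genes at 100 FPKM or more were SLC38A2 and SLC3A2. SLC1A5 moved from rank 7 to rank 3 by mean FPKM while its own level passed no test, because SLC7A1, SLC43A1, SLC7A5 and SLC38A1 fell below it.

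The share of each family in the summed FPKM of the carriers does not depend on how libraries were scaled against each other. SLC38 took 33.1 ± 1.99% in the parental and 42.1 ± 2.22% in the resistant libraries, and SLC1 took 7.91 ± 0.668% and 14.9 ± 0.934% (SD, n = 3). SLC7 light subunits took 16.4 ± 1.12% in the parental and 8.11 ± 0.508% in the resistant libraries. These families differed without overlap, SLC38 and SLC1 toward a larger share and the light subunits toward a smaller one. The summed FPKM of SLC38 itself was 409 in the parental and 330 in the resistant libraries in mean, so its larger share goes with a lower sum. The SLC43 share was 12.4% in the parental and 7.27% in the resistant libraries, the share of cationic SLC7 carriers was 11.7% and 7.75%, and that of SLC36 was 1.81% and 1.16%. Most of the SLC43 share in the resistant libraries was SLC43A3, which alone took 4.61, 4.38 and 4.66% across resistant replicates. It took at most 0.0262% in a parental library, so the family share understates the fall of SLC43A1 and SLC43A2. The SLC3 share, nearly all from SLC3A2, was 16.7% and 18.7%, with a lower level of SLC3A2. For each of the 7 families the groups did not overlap (exact permutation test, two-sided p = 0.1, which over 7 families stays 0.1 after Benjamini-Hochberg adjustment).

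**Figure D5:**
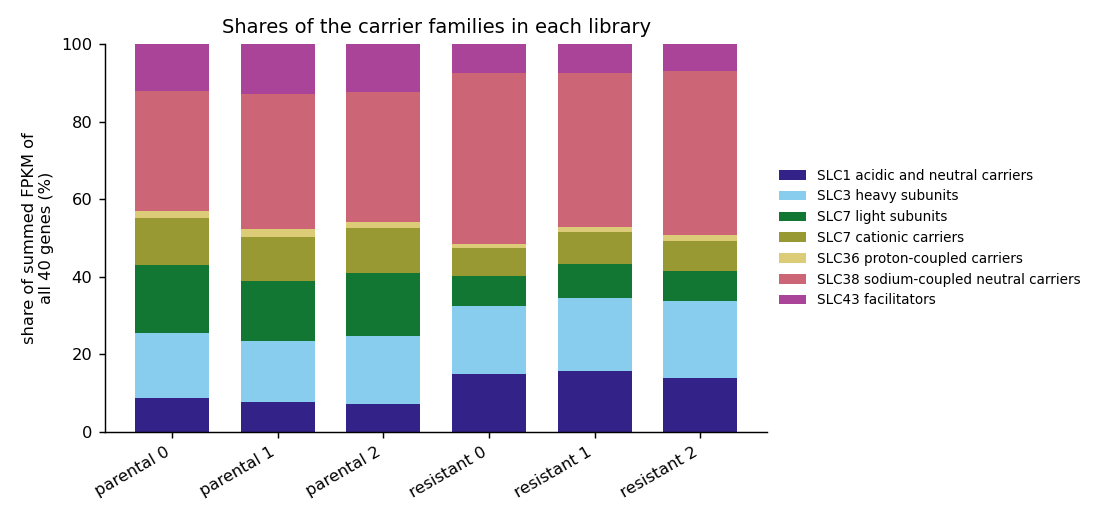
Share (%) of each carrier family in the summed FPKM of the 40 genes, stacked to 100% in each library. The SLC38 and SLC1 segments are wider in the 3 resistant libraries and the SLC7 and SLC43 segments are narrower.

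Amino acid carriers outside these families showed no such excess of lower genes. Of 30 other amino acid and peptide carriers 20 were tested, 6 were upregulated and 4 were downregulated in the limma fit, with a median log2 fold change of 0.15. Of all tested genes 22.1% were higher and 22.3% lower, and of protein-coding genes 28.9% and 26.7%, against which the counts of this and the next lists are to be read. SLC15A2, a peptide carrier, fell from 7.60 to 0.654 FPKM, SLC25A12, the mitochondrial aspartate and glutamate carrier, from 17.1 to 7.96 FPKM, and SLC16A10, an aromatic amino acid carrier, from 9.81 to 6.14 FPKM in mean. The vesicular glutamate carrier SLC17A7 rose from 0.300 to 2.201 FPKM and the neutral amino acid carrier SLC6A17 from 0.227 to 1.76 FPKM. SLC17A6, a second vesicular glutamate carrier, had values of 0.593, 0.903 and 0.903 FPKM across resistant replicates and was listed at 0 in all parental ones. The difference in calls between these and the 40 carriers was not tested.

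The genes through which mTORC1 reads amino acids moved both ways. Of 30 tested, 13 were downregulated, 6 were upregulated and 11 did not pass the limma test, with a median log2 fold change of -0.26. The count of higher genes was no larger than the 22.1% of all genes would give. LAPTM4B, a lysosomal protein that recruits the SLC3A2 and SLC7A5 pair, rose from a mean of 17.8 to 69.6 FPKM (log2 fold change 1.97, limma adjusted p = 3.14e-05). LAMTOR4, a subunit of the lysosomal Ragulator complex, rose by 1.33 and the GTPase RRAGD by 2.44 on the log2 scale. The log2 fold change was -1.48 for SESN3, a stress-induced inhibitor of the pathway, -0.80 for LAMTOR1, the Ragulator anchor, and -1.09 for NPRL3, a subunit of an inhibitor complex. Members of the same complex, LAMTOR4 and LAMTOR1, therefore changed in opposite directions.

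Of 25 tested enzymes that use the carried amino acids, 12 were downregulated and 6 were upregulated in the limma fit, with a median log2 fold change of -0.50. The count of higher genes was near the 22.1% of all genes, and 22.3% of all genes were lower. In the breakdown of branched-chain amino acids, BCAT2 rose from a mean of 34.4 to 78.3 FPKM and BCKDHA from 14.3 to 56.2 FPKM, whereas DBT, a subunit of the same dehydrogenase as BCKDHA, fell from 40.2 to 14.4 FPKM. GCLC, which makes the first bond of glutathione, rose from 33.3 to 58.6 FPKM. CTH, which makes cysteine, fell from 12.2 to 2.23 FPKM, and GOT2, the mitochondrial aspartate transaminase, from 144 to 72.4 FPKM.

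ATF4 is the factor of the amino acid response and is known to drive SLC7A11, SLC7A5, SLC3A2 and SLC38A2. It was 158, 154 and 148 FPKM across parental replicates against 168, 193 and 171 FPKM across resistant replicates, higher without overlap but short of the threshold (log2 fold change 0.21, limma adjusted p = 0.0627). Of the 22 genes of its list, 9 were downregulated and 4 were upregulated, with a median log2 fold change of -0.29, where 22.3% and 22.1% of all tested genes were. The log2 fold change was -2.36 for STC2, -2.39 for DDIT4 and -1.15 for PHGDH, the first enzyme of serine synthesis. SHMT2 and MTHFD2, mitochondrial one-carbon enzymes, rose by 0.73 and 0.71, and the stress factor DDIT3 rose by 0.58 on the log2 scale. SESN2 and ASNS stand in 2 of these lists each.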

How the data were processed

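RNA-Seq of 6 libraries was analysed. Per the paper's methods, the authors computed FPKM values with Cufflinks 2.2.1 on GENCODE v25, after alignment to GRCh38 by STAR 2.5.3 of reads (single-end, 50 bp) that TrimGalore 0.4.3 had trimmed. The submitters' processing notes name mm10, Trimmomatic 0.27 and FastQC 0.10.1 instead, but the identifiers in the table are human. The deposited table names no unit; FPKM was inferred from the methods and from values that are not whole, and how the authors scaled libraries is not given in the sources used here. No read counts were used, so no count test or counting interval was possible.

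Genes whose mean reached 0.1 FPKM were compared on log2(FPKM + 0.1), which understates changes of low genes, with limma 3.58.1 in R 4.3.3 (variance trend, two-sided, Benjamini-Hochberg adjustment over the 24468 tested of 58024 genes, threshold 0.05). Sums, shares and ratios were compared by exact permutation of libraries. The fit was also tested on simulated data, with a criterion for passing that was rewritten after the first result. Gene positions are from GENCODE v44. Python 3.11.15, numpy 2.4.6, pandas 2.3.3 and matplotlib 3.10.9 were used. Protein sequences were not used here, and 1 marker and the sum that holds it are not reported here.

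The carriers and the lists were chosen with earlier results of these data known. Full values are given for carriers called with at least a 2-fold change and for SLC3A2, SLC7A5, SLC7A11, SLC1A5, SLC38A1, SLC38A2 and SLC43A1, the others by range, mean or counts, and of each other list the 3 called genes with the smallest adjusted p in each direction; full values of SLC38A9, SLC1A4, SLC7A2 and SLC1A2, and ATF4, DCN, LUM and genes near SLC43A1, were added after their values were seen. Alternatives were other pseudocounts, filters and scalings, no trend, a replicate block and leaving out each library.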

Additional observations from a re-analysis of the deposited data

How the results depend on the processing

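Over all alternatives, 14 to 15 carriers were downregulated and 4 to 6 were upregulated at the threshold. Of the recomputed log2 fold changes of single carriers, 384 kept their direction and their side of the threshold, 12 became weaker and 4 changed sign. The 4 carriers upregulated at least 2-fold became 2 with a pseudocount of 1 FPKM, with quantile normalization and with the replicate block, and the median log2 fold change of the carriers was -0.30 with no filter on low values (main value -0.58), where more genes near 0 enter. When each library was left out in turn, other carriers called lower numbered 2 to 5, and mTORC1 genes numbered 3 to 6 called higher and 8 to 12 called lower. SLC7A9, never called, had a log2 fold change of -0.41 after quantile normalization and of -0.19 to 0.42 with a library left out, negative without parental replicate 1 or resistant replicate 2. SLC7A2, also never called, had -0.012 to 0.11 with a library left out, negative without parental replicate 2. The cause of these changes was not tested. SLC38A4 lost its call in 7 alternatives, SLC38A9 and SLC3A1 in 2 each and SLC38A10 in 1.

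Libraries with the same number did not deviate together (correlations 0.00802, 0.0165 and -0.00301 for numbers 0, 1 and 2), and not every library correlated best with its own number, so they share a number and are not known to be pairs. With the replicate block, 9463 genes were called instead of 10868, and 4 carriers were upregulated and 15 downregulated; under the block the adjusted p was 0.0557 for SLC38A4 and 0.0746 for SLC3A1. Without read counts, values under about 0.3 FPKM rest on a few reads, which limits SLC3A1, SLC7A7, SLC7A9 and the size of the rise of SLC43A3.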
